A study of Rattus norvegicus with 11 samples.

Results

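Intestinal fluid is set by a small group of transporters, and 10 of their genes are described here: Cftr, Slc26a3, Slc26a6, Slc12a2, Slc9a3, Slc4a4, Best2, Aqp8, Guca2a and Guca2b. They were found by gene symbol, each matched 1 row, and they stand among 24481 genes with read counts and 24205 genes with FPKM, a fragment count scaled by transcript length and library size. RNA of the ileum was sequenced from Sprague-Dawley rats of 6 to 8 weeks, stated to be male, in 11 libraries. The control group had 3 libraries from rats injected with vehicle, and the sources do not state whether these rats had a sham operation. The SAP group had 4 libraries from rats with severe acute pancreatitis, induced with 3% sodium taurocholate in the pancreatic duct, that also received vehicle. The JZL184 group had 4 libraries from rats with the same pancreatitis that received JZL184, an inhibitor of monoacylglycerol lipase, at 10 mg/kg. Rats were assigned 24 h after surgery and sampled 24 h after the injection. The labels name the control treatment as a control plasmid and the cells as intestinal epithelial cells, while the tissue is ileum. Enterocyte markers (8 of 9 found) summed to 15250 to 21180 FPKM in control, 7726 to 16380 in SAP and 5026 to 26580 in JZL184 libraries. The lowest sum was that of JZL184 library 3, of which 3249 was Epcam, a gene of all gut epithelium. In that library Fabp2 was at 265.6 FPKM (5745 to 9126 in control), Apoa4 at 5.48 (287 to 406), Alpi at 0.41 (17.9 to 21.03) and Apob at 0.29 (10.4 to 18.2). Alpi was also near 0 in SAP library 3 (0.33) and JZL184 library 4 (0.05).

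Fluid is secreted when chloride enters the cell through the basolateral cotransporter Slc12a2 (NKCC1) and leaves through the apical channel Cftr. Bicarbonate enters through the basolateral cotransporter Slc4a4 (NBCe1) and leaves through Cftr or through apical chloride/bicarbonate exchangers. Salt is absorbed by the apical sodium/proton exchanger Slc9a3 (NHE3) working beside the apical exchangers Slc26a3 (DRA) and Slc26a6 (PAT1), and water follows. Guanylin (Guca2a) and uroguanylin (Guca2b) are peptides that bind guanylate cyclase C on the apical membrane and raise cGMP, which favours secretion and slows sodium absorption. Best2 is a bicarbonate channel known from goblet cells of the colon, and Aqp8 is a water channel of epithelial cells.

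Several libraries stood apart. Control libraries 1 and 2 differed by a chi-square of 2.81 per gene, against 77.5 to 563 in all other pairs within a group, and were counted as 1 sample, which left 2 control samples. SAP library 2 held 20 reads on 3 Y-linked genes, against 1222 to 4665 in the other 10 libraries. It also held 7826 reads on LOC100911498, used here as the rat Xist transcript, an RNA of female cells, against 0 to 56. These are the values of a female sample, though the rats were stated to be male. In SAP libraries 1 and 2 longer genes were relatively higher, with slopes of log2 level (relative to the gene's mean) on log2 gene length of 0.304 and 0.314 against -0.193 to 0.0816 elsewhere. The ileal marker Fabp6 was at 20506 to 21819 FPKM in the control libraries and 3079 to 13670 in the SAP libraries, but at 410 in JZL184 library 1 and 79.9 in JZL184 library 3. The latter library also held 478 FPKM of Car1, a marker of colon epithelium that was at 0.17 to 24.5 in the other 10. The colon genes Hoxd13, Hoxb13 and Hoxa13 were at 0.04, 0.05 and 0.16 FPKM in it. In the other 10 they were at most 0, 0.03 and 0.04, so all these values are close to 0, with the highest in JZL184 library 3. Summed neutrophil markers (8 of 8 found) were at 1.19 to 2.75 FPKM in control, 9.02 to 83.1 in SAP and 13.5 to 253 in JZL184 libraries. Summed ileal markers (5 of 5 found) were at 22930 to 24360 FPKM in control, 3693 to 15410 in SAP and 1022 to 11030 in JZL184 libraries, and summed colon markers (8 of 8 found) at 6.8 to 7.87, 5.09 to 11.2 and 6.34 to 484. The 484 was almost all Car1: without it the other 7 colon markers summed to 6.67 in JZL184 library 3, against 6.56 to 7.56 in control, 4.58 to 10.8 in SAP and 6.01 to 15.7 in JZL184 libraries. The part of these markers and of sex in the results was not tested. Fewer cells of a type and less RNA per cell cannot be told apart in whole tissue, and the labels do not say that each library came from a separate rat, so p-values measure the spread between these samples. Depth was 26341299 to 33847135 reads on genes.

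**Figure D1:**
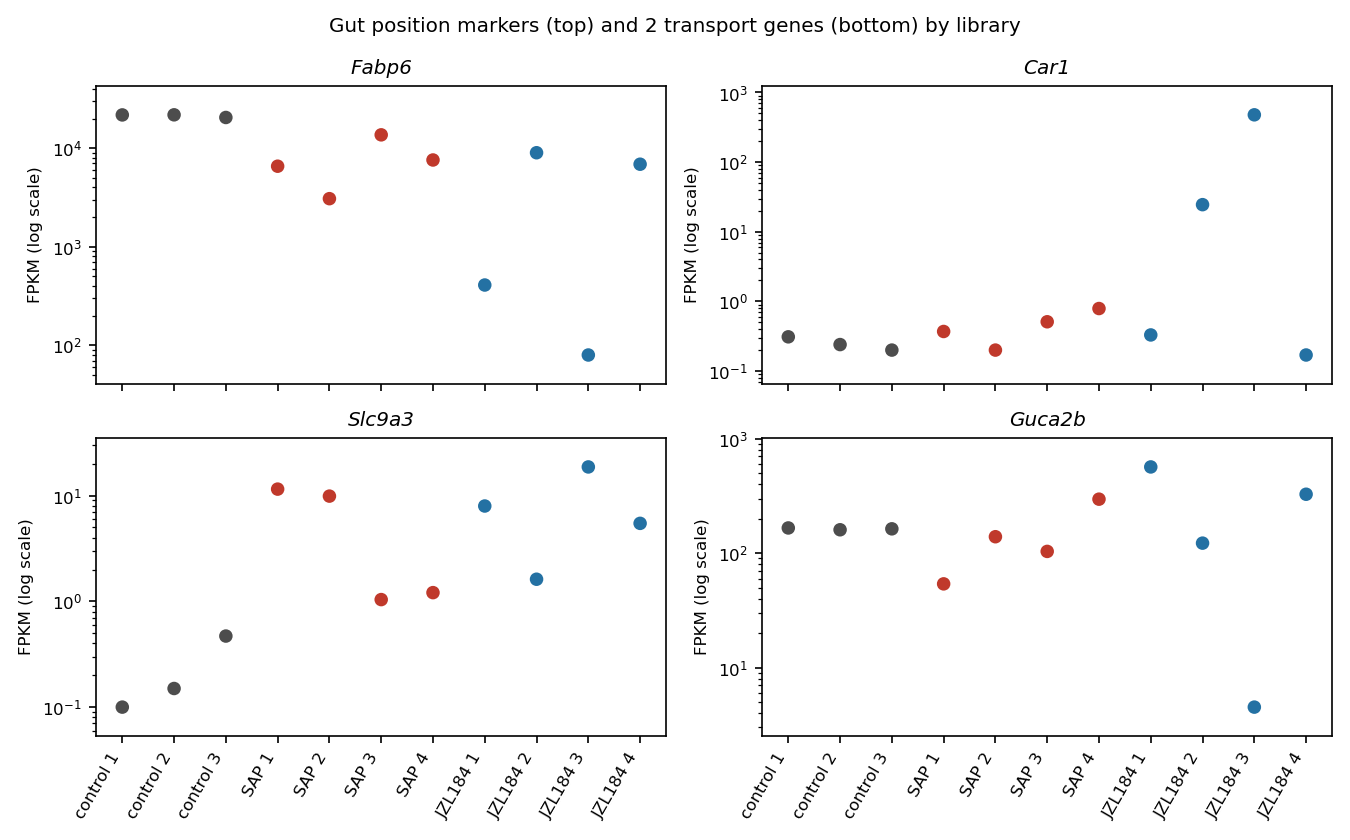
FPKM (log scale) of Fabp6, Car1, Slc9a3 and Guca2b in each of the 11 libraries, coloured by group. JZL184 library 3 had the lowest Fabp6 and Guca2b and the highest Car1 and Slc9a3.

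The 2 guanylin genes are neighbours on chromosome 5 with no gene between them, on opposite strands. Their promoters are shown for that reason, with that of Slc26a3, because these 3 members held letters of motifs known from intestinal promoters. Stretches of 30 bases come from RefSeq (assembly GRCr8), with positions counted from the transcription start, and capitals mark the motif. A promoter was found for 9 of 10 members, all but Slc26a6.
Guca2a, -163 to -134: ctctgttgatctCTTATCtccaaggctcca
Guca2a, -140 to -111: ggctccactggcCTTATCtgatggggctca
Guca2b, -99 to -70: cccagccagacaGTTAATaagtgaccaggg
Slc26a3, -122 to -93: attgttgtaaaaGTTAATgaaagttagtta
The letters GATAAG or their reverse CTTATC occurred in 7.05% of 33469 promoters and in 1 member, Guca2a. GTTAAT or its reverse ATTAAC occurred in 7.45% and in 2 members, Guca2b and Slc26a3. TTTATG or its reverse CATAAA occurred in 12.7% and in 0 members. Both strands were searched, and a match is a description only.

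Among the members, the guanylin genes were by far the most abundant per length. In control samples Guca2a stood at 1004 ± 73.5 FPKM (SD, n = 2) and Guca2b at 163 ± 0.05. The 0.05 came after control libraries 1 and 2 were averaged, and over the 3 control libraries the SD of Guca2b was 2.98. Slc26a6 (12.3 ± 1.38), Slc26a3 (12.1 ± 5.66) and Slc12a2 (9.05 ± 1.55) came next. The spread of Slc26a3 covered the means of the other genes, while Slc26a6 (11.28 to 13.37 in the control libraries) lay above Slc12a2 (7.79 to 10.14). Cftr followed at 4.71 ± 2.17 and Slc4a4 at 1.71 ± 0.78. Aqp8 (0.30 ± 0.10), Slc9a3 (0.30 ± 0.24) and Best2 (0.20 ± 0.10) were lowest, and their spreads overlapped.

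**Figure D2:**
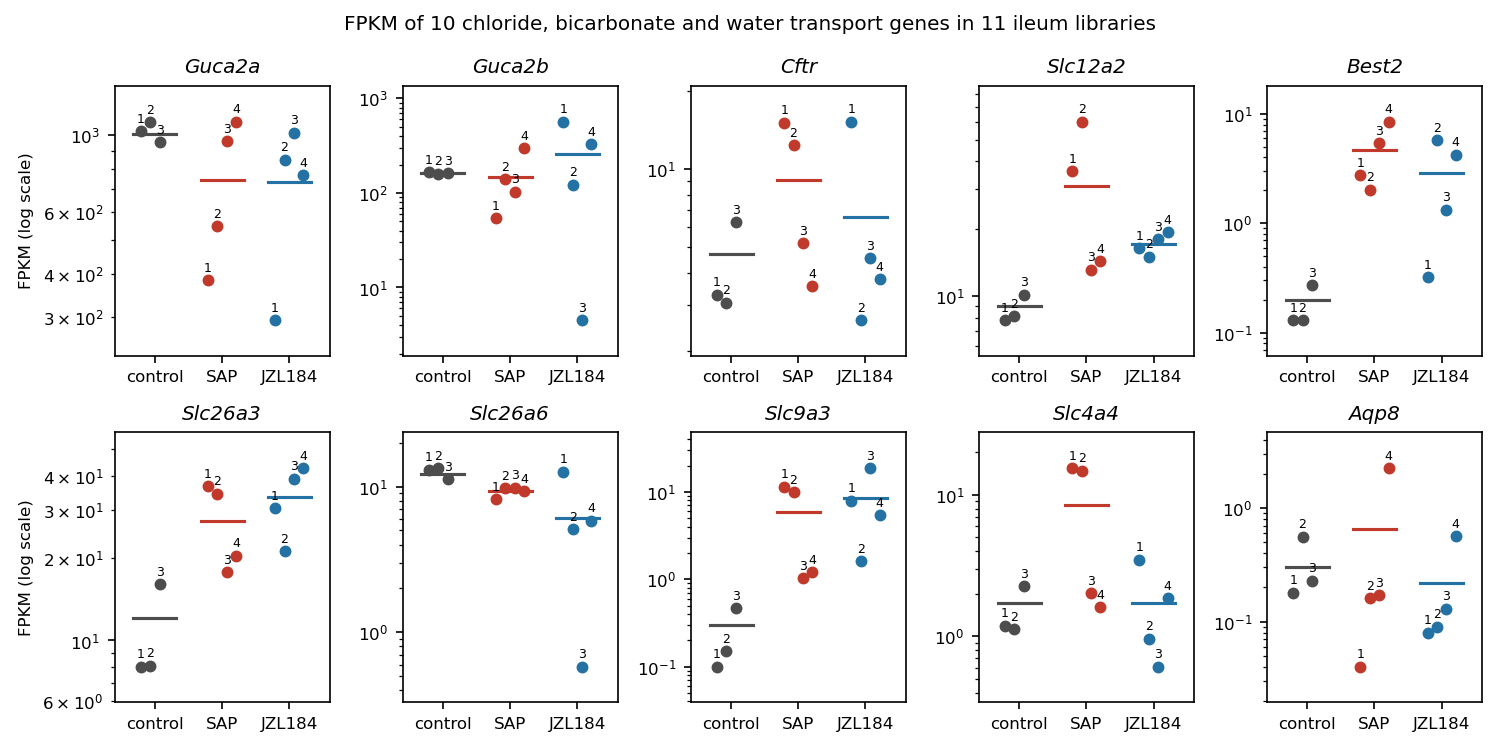
FPKM (log scale) of the 10 genes in 11 libraries, each point 1 library with its number and each line the group mean (control libraries 1 and 2 averaged as 1 sample). For Slc26a3, Slc12a2, Slc9a3 and Best2 every SAP and JZL184 point lies above every control point, and Guca2b spanned 4.51 to 567 in the JZL184 group.

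A gene was called when edgeR's quasi-likelihood test gave an adjusted p (Benjamini-Hochberg, over all tested genes) under 0.05 together with a change of more than 2 times in either direction. In no comparison was a member called. Of all tested genes 0% were called in SAP against control (10 of 10 members tested, 16029 genes), 0% in JZL184 against SAP (9 of 10 members, 15308 genes) and 2.16% in JZL184 against control (10 of 10 members, 15916 genes), where 1.02% were called higher and 1.14% lower. At an unadjusted p under 0.05, edgeR gave 9.09%, 21.3% and 26.3% of genes (1457, 3267 and 4178). DESeq2 called 1.23%, 6.98% and 10.8% of genes, and 2, 1 and 3 members. Limma-voom called 0.0873%, 4.57% and 18.3% of genes, and 0, 0 and 3 members. The comparisons share groups, so their results are not independent of each other.

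Slc9a3 and Best2 had the log2 fold changes farthest from 0 in both comparisons with control. Slc9a3 is the exchanger that takes up sodium in trade for protons. Its FPKM was 0.10, 0.15 and 0.47 in the control libraries, 11.53, 9.90, 1.04 and 1.21 in the SAP libraries and 7.98, 1.62, 18.69 and 5.47 in the JZL184 libraries. All 8 pancreatitis libraries lay above all 3 control libraries. The control values rest on 21, 32 and 104 reads. Against control the log2 fold change was 4.12 (SE 1.25, adjusted p = 0.459) in SAP and 4.76 (SE 1.02, adjusted p = 0.0533) in JZL184, the latter just outside the threshold. DESeq2 called it in both (adjusted p = 0.00155 and 3.95e-09). SAP libraries 1 and 2 were the high ones in their group, and without them the log2 fold change in SAP was 1.91. The highest value, 18.69, was in JZL184 library 3, where Fabp6 was 79.9 FPKM. In JZL184 against control the log2 fold change was 4.07 without that library and 3.66 without JZL184 libraries 1 and 3. JZL184 against SAP gave 0.69 (SE 0.82, adjusted p = 0.630).

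Best2 was likewise scarce in control tissue. Control libraries held 0.13, 0.13 and 0.27 FPKM (8, 9 and 19 reads), SAP libraries 2.76, 2.03, 5.42 and 8.49, and JZL184 libraries 0.32, 5.72, 1.33 and 4.24. Every pancreatitis library exceeded every control library, though JZL184 library 1 only slightly. The log2 fold change was 4.45 (SE 0.85, adjusted p = 0.338) in SAP against control and 3.92 (SE 1.20, adjusted p = 0.0982) in JZL184 against control. DESeq2 called both (adjusted p = 3.12e-07 and 0.000237). Without SAP libraries 1 and 2 it was 5.11 and called. JZL184 against SAP gave -0.51 (SE 0.81).

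Slc26a3, the exchanger that takes up chloride for bicarbonate, was at 8.02, 8.08 and 16.06 FPKM in control libraries. SAP libraries held 36.58, 34.36, 17.81 and 20.43 and JZL184 libraries 30.39, 21.21, 39.02 and 42.59. No pancreatitis library reached down to control. The log2 fold change against control was 1.01 (SE 0.41, adjusted p = 0.459) in SAP and 1.44 (SE 0.38, adjusted p = 0.0775) in JZL184, and JZL184 against SAP gave 0.46 (SE 0.29, adjusted p = 0.358). In JZL184 against control it was called by DESeq2 (adjusted p = 0.0133) and limma-voom (adjusted p = 0.0152).

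Slc26a6, a related exchanger that moves several anions, had fold changes of the opposite sign. Control libraries held 13.09, 13.37 and 11.28 FPKM, SAP libraries 8.22, 9.73, 9.84 and 9.35, and JZL184 libraries 12.66, 5.08, 0.58 and 5.84. All 4 SAP libraries lay below control, while JZL184 overlapped it. The log2 fold change was -0.57 (SE 0.27, adjusted p = 0.459) in SAP and -1.07 (SE 0.81, adjusted p = 0.427) in JZL184 against control. The lowest value, 0.58, was in JZL184 library 3, where Fabp6 was 79.9 FPKM. Without JZL184 libraries 1 and 3 the log2 fold change was -1.11 and called (adjusted p = 0.0236).

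Within each library the ratio of Slc26a3 to Slc26a6 was 0.604 to 1.42 in control, 1.81 to 4.45 in SAP and 2.40 to 67.3 in JZL184, so that neither group overlapped control. The ratio of Slc26a3 to Slc9a3 was 34.2 to 80.2 in control, 3.17 to 17.1 in SAP and 2.09 to 13.1 in JZL184. That of Slc12a2 to Cftr overlapped control, at 1.62 to 2.65 in control, 2.39 to 4.86 in SAP and 1.07 to 5.72 in JZL184. These ratios are descriptions with no test.

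**Figure D3:**
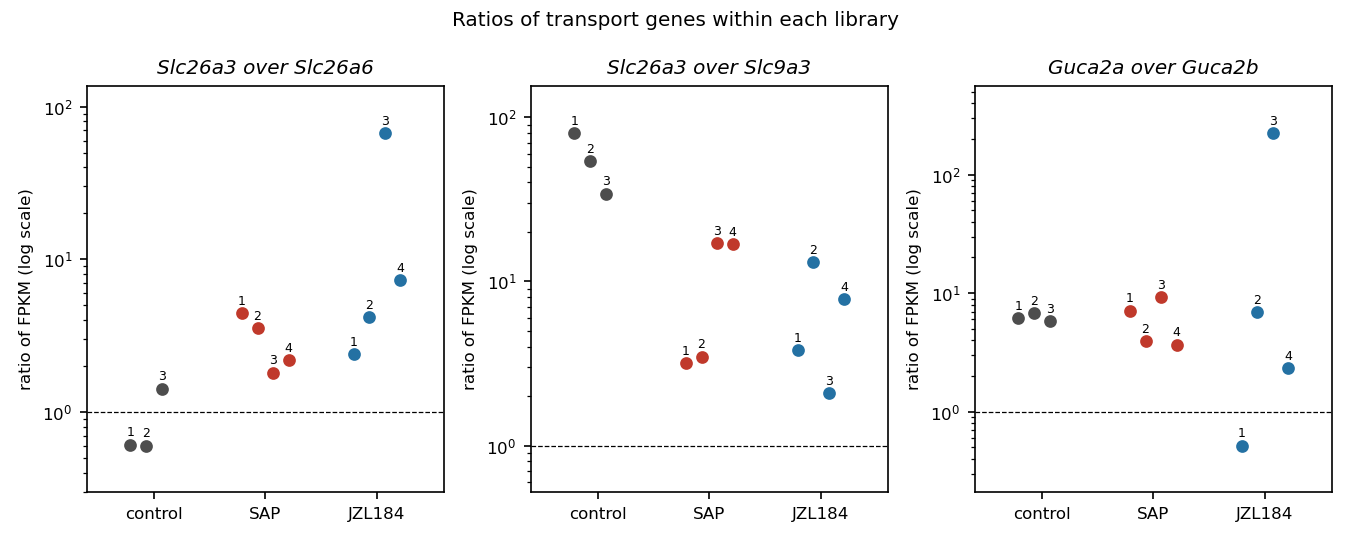
Ratio of FPKM (log scale) of Slc26a3 to Slc26a6, Slc26a3 to Slc9a3 and Guca2a to Guca2b within each library, with the library number, and a dashed line at 1. The control points of the first pair sit below every SAP and JZL184 point, and those of the second pair above them.

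Of the secretory transporters, Slc12a2 was at 7.79, 8.12 and 10.14 FPKM in control, 36.16, 60.23, 13.11 and 14.35 in SAP and 16.39, 14.98, 17.90 and 19.33 in JZL184 libraries. All pancreatitis libraries were above control, and the JZL184 values were close together (17.2 ± 1.88, SD, n = 4). The log2 fold change was 1.56 (SE 0.63, adjusted p = 0.459) in SAP and 0.89 (SE 0.27, adjusted p = 0.0941) in JZL184 against control. Without SAP libraries 1 and 2 the first was 0.55.

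Cftr was at 3.29, 3.06 and 6.25 FPKM in control, 15.16, 12.40, 5.20 and 3.55 in SAP and 15.27, 2.62, 4.55 and 3.77 in JZL184 libraries. The groups overlapped, and 3 libraries (SAP 1, SAP 2 and JZL184 1) held over 12 FPKM. Log2 fold changes were 0.75 (SE 0.58) in SAP against control and -0.31 (SE 0.56) in JZL184 against SAP. Without SAP libraries 1 and 2 the first was -0.16.

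Slc4a4 was at 1.19, 1.12 and 2.26 FPKM in control, 15.42, 14.80, 2.02 and 1.60 in SAP and 3.48, 0.96, 0.61 and 1.86 in JZL184 libraries. SAP libraries 1 and 2 alone stood out. In SAP against control the log2 fold change was 2.09 (SE 0.99, adjusted p = 0.459), and 0.034 without those libraries. JZL184 against SAP gave a log2 fold change of -2.07 (SE 0.77, adjusted p = 0.180), which DESeq2 called (adjusted p = 0.0474). Without SAP libraries 1 and 2 it was -0.03.

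Aqp8 was scarce, at 0.18, 0.56 and 0.23 FPKM in control, 0.04, 0.16, 0.17 and 2.25 in SAP and 0.08, 0.09, 0.13 and 0.57 in JZL184 libraries. It overlapped between groups, and it did not pass the low-count filter of JZL184 against SAP. Its log2 fold change was 1.02 (SE 1.45) in SAP against control, where the 2.25 of SAP library 4 set the mean.

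Guca2a, the most abundant member, was at 1026, 1085 and 952 FPKM in control, 382, 546, 957 and 1090 in SAP and 294, 848, 1013 and 765 in JZL184 libraries. The groups overlapped. The log2 fold changes were -0.57 (SE 0.49) in SAP and -0.48 (SE 0.47) in JZL184 against control. With offsets for gene length the first was -0.08, and without SAP libraries 1 and 2 it was -0.04.

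Guca2b was nearly constant in control libraries (166, 160 and 163 FPKM), while SAP libraries held 53.9, 139, 104 and 296 and JZL184 libraries 567, 122, 4.51 and 327. The lowest value was again in JZL184 library 3, and the highest was in JZL184 library 1, where Fabp6 was 410 FPKM. Within libraries, the ratio of Guca2a to Guca2b was 5.83 to 6.78 in control, 3.68 to 9.24 in SAP and 0.518 to 225 in JZL184 libraries. The log2 fold change of Guca2b was -0.26 (SE 0.64) in SAP and 0.59 (SE 1.21) in JZL184 against control. Over the 10 samples the Pearson r of the 2 peptide genes was -0.12.

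**Figure D4:**
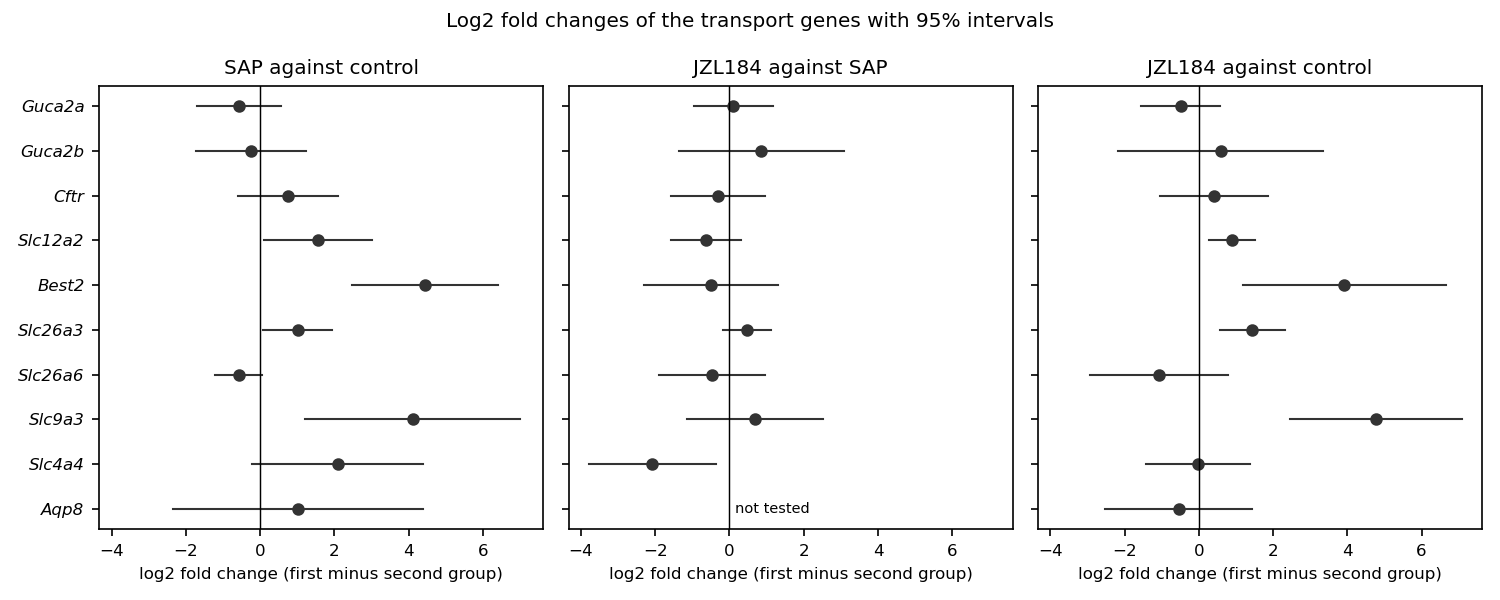
Log2 fold change with 95% interval (edgeR) of each gene in the 3 comparisons, first minus second group. Intervals of Slc9a3, Best2, Slc26a3 and Slc12a2 exclude 0 in both comparisons with control, and 1 interval, that of Slc4a4, does so in JZL184 against SAP.

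Non-overlap of normalised counts was counted for all genes. In SAP against control, 4 of 10 members were above control in every library, against 11.3% of genes, and 1 (Slc26a6) was below, against 11.9% (23.2% in either direction). In JZL184 against control 4 of 10 were above, against 18.9%, and 0 below, against 19.3% (38.3% in either direction). In JZL184 against SAP 0 of 9 members were apart, against 6.23% of genes higher and 5.59% lower (11.8% in either direction). At an unadjusted p under 0.05, 4 of 10 members were higher in SAP against control, against 5.69% of genes, and 0 lower, against 3.4%. In JZL184 against control 4 were higher, against 13.8%, and 0 lower, against 12.5%. In JZL184 against SAP 0 of 9 were higher, against 10.3%, and 1 lower, against 11.1%. With offsets for gene length, log2 fold changes in SAP against control were 4.56 for Best2, 3.52 for Slc9a3, 1.09 for Slc12a2, 1.03 for Slc26a3, 1.36 for Slc4a4 and 0.28 for Cftr. They were 1.115 for Aqp8, 0.23 for Guca2b, -0.08 for Guca2a and -0.76 for Slc26a6. The median log2 fold change of members was 1.01, against 0.06 over all genes, in SAP against control, 0.50 against 0.08 in JZL184 against control and -0.31 against -0.05 in JZL184 against SAP.

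On the FPKM scale, the difference of means was tested for each member by exact permutation, two-sided, and no p fell under 0.05. With 4 against 2 samples the smallest p that can be reached is 0.0667, and that value was given by Slc26a6 in SAP against control and Slc12a2 in JZL184 against control. With 4 against 4 the smallest is 0.0286, and the smallest found was 0.2, for Slc4a4.

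Of the other genes of the pathway, 7 lists were followed, and edgeR called 1 gene. Of their tested genes 0 of 61 were called in SAP against control, 0 of 59 in JZL184 against SAP and 1 of 62 (1.61%, lower) in JZL184 against control, against 2.16% of all genes there. At an unadjusted p under 0.05, 4 were higher and 7 lower in SAP against control (5.69% and 3.4% of all genes), 11 and 3 in JZL184 against SAP (10.3% and 11.1%), and 13 and 9 in JZL184 against control (13.8% and 12.5%). Values given alone in the rest of the pathway are log2 fold changes of genes that edgeR did not call. DESeq2 and limma-voom called some of them. In JZL184 against SAP these included Ptger2 (adjusted p = 0.00247 and 0.0395) and Adra2a (0.00849 and 0.0464). In JZL184 against control they included Slc4a7 (0.00186 and 0.0199) and Ca4 (0.00725 and 0.0304). In JZL184 against SAP, Clca1 was called by DESeq2 only (0.0051 and 0.071), and Slc9a2 by neither (0.0911 and 0.0848). Kcnn4, a basolateral potassium channel that keeps the driving force for secretion, was at 41.2 to 50.4 FPKM in control and 8.88 to 19.0 in JZL184 libraries, and fell by 1.76 on the log2 scale (SE 0.31, adjusted p = 0.0357) in JZL184 against control. The log2 fold change of Kcnn4 stayed between -1.96 and -1.55 when single samples were left out, but the call was lost without control library 3 (-1.96, adjusted p = 0.168), control libraries 1 and 2 (-1.55, 0.483), JZL184 library 2 (-1.73, 0.0932) or JZL184 library 4 (-1.60, 0.0804). In SAP against control Kcnn4 was at -1.32 (SE 0.34, adjusted p = 0.459). Among the potassium channels and pump (11 genes) Kcnk5 was at -0.86 in SAP against control, Kcnma1 at 1.30 in JZL184 against control, and Kcne3 and Kcnq1 at 1.34 and 1.10 in JZL184 against SAP.

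In the guanylate cyclase C list 0 of 6 tested genes were called in each comparison. Prkg2, a cGMP-dependent kinase, was at 1.83 in SAP against control, where SAP libraries 1 and 2 held 32.9 and 40.0 FPKM against 4.55 to 7.55 in control and the other SAP libraries. The scaffold Pdzk1 was at -0.99 in SAP and -2.09 in JZL184 against control, with 1.28 FPKM in JZL184 library 3, and at -1.09 in JZL184 against SAP. Pde5a, which degrades cGMP, was at -0.51 in JZL184 against control and -0.43 in JZL184 against SAP.

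Among other apical channels and exchangers the calcium-activated chloride channel Ano1 was at 1.10 in SAP and 1.69 in JZL184 against control. Without SAP libraries 1 and 2 the first was 0.69. JZL184 library 3 held 10.44 FPKM of Ano1, against 2.31 to 3.78 in the other JZL184 libraries, and without it the second was 1.03. Clca1, a secreted goblet cell protein, was at 1.06 in SAP against control and -2.29 (SE 0.62, adjusted p = 0.110) in JZL184 against SAP, where every JZL184 library (11.7 to 86.6 FPKM) lay below every SAP library (174 to 611). Slc26a9 was listed at 0 in all 3 control libraries, and at 0.05 to 0.19 FPKM in JZL184 libraries. Between the JZL184 and SAP groups it was at 1.99.

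Of sodium-proton exchangers and scaffolds 0 of 6 were called. Slc9a2 was at -1.12 in JZL184 against control and -1.02 against SAP, where its JZL184 libraries (7.47 to 27.1 FPKM) did not overlap SAP (32.7 to 42.5). The scaffold Slc9a3r1 was at -0.92, -1.22 and -0.29 in SAP against control, JZL184 against control and JZL184 against SAP, and Ezr at -0.52 in SAP against control.

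Of 14 other bicarbonate transporters and carbonic anhydrases, Slc4a7 was at 3.18 in SAP and 2.17 in JZL184 against control. SAP libraries 1 and 2 held 3.29 and 3.99 FPKM of Slc4a7, against 0.43 and 0.44 in SAP libraries 3 and 4. Without SAP libraries 1 and 2 the 3.18 became 1.13. Ca14 was at -1.57 in SAP and Ca4 at 2.18 in JZL184 against control. JZL184 library 3 held 425 FPKM of Ca4, against 99.4 to 118 in the other JZL184 libraries, and without it Ca4 was at 1.45. Car1 and Car2 were at 8.11 and 4.66 in JZL184 against SAP, where JZL184 library 3 held 478 and 127 FPKM against at most 24.5 and 7.31 in the other JZL184 libraries. The groups overlapped for both.

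Of other aquaporins (8 of 10 found), Aqp12a was at -2.47 in SAP and -2.31 in JZL184 against control. It was scarce, with 0.63 to 1.15 FPKM in control and 0.06 to 0.33 in SAP and JZL184 libraries. Aqp7 was at -1.46 in SAP against control. Aqp9 was at 3.32 in JZL184 against control, from at most 0.17 FPKM. Aqp11 and Aqp4 were at -1.13 and -0.84 in JZL184 against SAP. The last list held receptors that stimulate secretion and receptors that restrain it. Ptger2, a prostaglandin E2 receptor that raises cAMP, was at 1.83 in JZL184 against control and 1.69 against SAP. It was scarce, with 0.06 to 0.17 FPKM in control, 0.11 to 0.18 in SAP and 0.30 to 0.70 in JZL184 libraries. Adra2a, an adrenergic receptor that lowers cAMP and restrains secretion, was at 1.51 in JZL184 against control and 1.53 against SAP. Neither overlapped with the control or SAP group. Ptger4 and Adora2b were at 0.76 and 0.60 in SAP against control.

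The gene most like each member in pattern was found by Pearson r of log2 CPM (reads of a gene scaled to library size) over 10 samples among 11492 genes. It was Kpnb1 for Cftr (0.963), Zbtb44 for Slc26a3 (0.985), Smlr1 for Slc26a6 (0.991), Tm9sf2 for Slc12a2 (0.967), Ubp1 for Slc9a3 (0.975) and Actr2 for Slc4a4 (0.990). For Best2 it was Plxdc2 (0.913), for Aqp8 RT1-S2 (0.872), for Guca2a Dtnb (0.981) and for Guca2b Prap1 (0.967). Between members, Cftr and Guca2a ran against each other (r -0.94) and Slc26a3 ran with Slc9a3 (r 0.924). Cftr is a long gene (7.27 kb) and Guca2a a short one (0.602 kb), and these levels carry no offsets for gene length. SAP libraries 1 and 2 and JZL184 library 1 had the highest length slopes (0.304, 0.314 and 0.0816). They also held the most Cftr and the least Guca2a, and the part of gene length was not tested. The samples share libraries that stand apart, and these values describe the pattern only.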

How the data were processed

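RNA of ileum was sequenced with a stranded kit in paired ends. The authors trimmed the reads, aligned them with HISAT2 to the rat assembly mRatBN7.2, and made the deposited counts from uniquely aligned reads per gene. The authors also calculated the deposited FPKM, which scale those reads by gene length and library size. Neither the counting tool nor the annotation is given in the sources used here. Groups came from the treatment labels.

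Counts were fitted with edgeR 4.0.16 (TMM, filterByExpr with a minimum count of 10, quasi-likelihood test, R 4.3.3) for each pair of groups. DESeq2 1.42.0 and limma 3.58.1 (voom) were alternatives, as were other filters, normalisations, gene length offsets, control libraries kept separate, a replicate block and libraries left out. Control libraries 1 and 2 were summed (FPKM averaged). Their chi-square of 2.81 per gene is above pure counting noise but far below other pairs. FPKM were compared by exact permutation. Standard errors came from the log2 fold change and the F statistic. Libraries held between 26341299 and 33847135 reads, and the part of depth in the precision was not tested. Read counts were small for the scarce members. Best2 had 8, 9 and 19 reads in the control libraries, and Aqp8 had 2 to 112 reads over all libraries. JZL184 libraries 1 and 3 were left out as an alternative chosen after seeing the data.

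The members, gene lists and tests were chosen with earlier results of these data known. All members are named, and of each pathway list the called genes and the 2 with the smallest p in each comparison. The DESeq2 results use the same call threshold. Library numbers did not pair samples: the correlation of deviations between same-numbered SAP and JZL184 libraries was -0.435 to 0.121.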

Additional observations from a re-analysis of the deposited data

Results flagged for a closer look

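In 20 groups of 4 libraries (10 genes, SAP and JZL184), 3 had a library far from the other 3 by Dixon's test at the 95% level, and chance flags about 1 group in 20. Cftr was 15.27 FPKM in JZL184 library 1, against 2.62 to 4.55 in the others. Aqp8 was 2.25 FPKM in SAP library 4, against 0.04 to 0.17, and 0.57 FPKM in JZL184 library 4, against 0.08 to 0.13.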

How the results depend on the processing

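With few samples per group, counts of called genes moved with the tool, and no member was called by the edgeR test. In SAP against control, where 0 genes were called, DESeq2 called 208 (2 members), limma-voom 14, no filter 14, all 3 groups in 1 fit 4, separate control libraries 33 (1 member, Best2) or 1434 by DESeq2 (5 members), and leaving out SAP libraries 1 and 2 gave 74 (1 member, Best2). Leaving out single replicates gave 0 to 3 genes and 0 members. In JZL184 against SAP (0 genes), DESeq2 called 1283 (1 member, Slc4a4), limma-voom 699, no filter 27, all 3 groups 207, length offsets 59 and leaving out JZL184 libraries 1 and 3 gave 7; single replicates gave 0 to 655, the highest without JZL184 library 1. In JZL184 against control (343 genes), DESeq2 called 1899 (3 members), limma-voom 2906 (3), no filter 929 (2), separate controls 2800 (3) or 3498 by DESeq2 (3), leaving out JZL184 libraries 1 and 3 gave 2967 (4), and single replicates gave 0 to 1867 genes and 0 to 3 members, with 0 without control libraries 1 and 2, 1 without control 3, 25 without JZL184 library 2, 78 without 4, 860 without 3 and 1867 without 1. The replicate numbers did not pair the samples (1 of 4 SAP libraries correlated best with its own number). With the replicate block and separate controls, SAP against control gave 1 gene (2 with length offsets) and JZL184 against control 1488 (2 members), or 1155 with length offsets (2 members), and the block gave 0 in JZL184 against SAP. Of 502 member fits under alternatives 430 kept their side of the threshold, 36 crossed it and 36 turned direction; 637, 86, 4 and 1 of 728 fits of named pathway genes kept, gained, lost or turned theirs. The cause was not tested.

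Direction turned as follows (log2 fold change). In SAP against control: Aqp8 -0.57 with limma-voom, -1.61 with the replicate block and -1.15 with the block and length offsets, and -1.55 to 1.52 without single replicates; Guca2b 0.23 with length offsets, 0.26 without SAP libraries 1 and 2, and -0.94 to 0.039 without single replicates; Cftr -0.16 without SAP libraries 1 and 2. In JZL184 against SAP: Guca2a -0.23 with length offsets, -0.31 with the block and length offsets, -0.42 without SAP libraries 1 and 2, and -0.13 to 0.42 without single replicates; Guca2b -0.44 with the block and length offsets; Cftr 0.59 and Slc12a2 0.37 without SAP libraries 1 and 2; Slc9a3 -0.46 and Best2 0.30 without JZL184 libraries 1 and 3, when Slc9a3r1 was at 0.19. Without single replicates Cftr ran from -1.06 to 0.039, Best2 from -1.16 to 0.039 and Slc9a3 from -0.012 to 1.25. In JZL184 against control: Cftr -0.059 with limma-voom, -0.49 without JZL184 libraries 1 and 3, and -0.37 to 0.89 without single replicates; Guca2b -0.20 with limma-voom, -0.89 with the block, -0.76 with the block and length offsets, and -0.073 to 0.999 without single replicates; Slc4a4 0.14 with separate controls, 0.11 with DESeq2 on them, and -0.54 to 0.46 without single replicates; Aqp8 0.12 without JZL184 libraries 1 and 3. On the FPKM scale, mean differences turned for Slc4a4 (-0.072 at log2(FPKM + 1), -0.18 at log2(FPKM + 0.1)) and Guca2b (-0.63 and -0.69) in JZL184 against control, for Guca2b in JZL184 against SAP (-0.23 and -0.29) and for Aqp8 in SAP against control (-0.0147 at log2(FPKM + 0.1)).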
